A study of Mus musculus with 4 samples.

Results

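The genes described here are 33 transcripts used as markers of the fields of the mouse hippocampus. They were matched by gene symbol among 19388 genes with values, and all 33 were found. All of them averaged at least 1 FPKM over the 4 libraries and were tested, so markers of every field were present in the tissue labelled hippocampus. By field, 8 mark the pyramidal cells of CA1, 11 mark CA2 and CA3, and 14 mark the granule cells of the dentate gyrus. Polyadenylated RNA was sequenced from whole hippocampus of C57BL/6 mice, an inbred laboratory strain that the series title describes as middle-aged. One set of mice received sodium L-ascorbate, the sodium salt of ascorbic acid (vitamin C), and the control set received phosphate-buffered saline (PBS). The series design text gives 30 days for the ascorbate treatment, and age in numbers and sex are not given in the sources used here. There were 2 libraries per group, numbered 1 and 2 in both, and they are called ascorbate 1, ascorbate 2, PBS 1 and PBS 2. The sources used here do not say what the numbers stand for, nor whether each library came from 1 animal, so p-values measure the spread between these libraries only. The deposited values are FPKM, which divide a gene's fragments by its transcript length and by the library's mapped total, and read depth is unknown.

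The hippocampus is a folded sheet in which information passes from dentate granule cells through mossy fibres to CA3, and from CA3 to CA1, while CA2 forms a small field between them. Each field has its own principal neuron with its own set of transcripts, which is why field markers are used to place cells and to judge which stretch of tissue a dissection took. Many of these genes are also used elsewhere in the brain or body, so a bulk library sums the field and every other source. In such libraries fewer cells of a type and less RNA per cell cannot be told apart.

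Promoter windows, from 250 bases before to 50 bases after a start site, were taken from RefSeq (GRCm38.p6) for 26 of the 33 members, in 33 windows. Of them 4 are shown, from genes named in the results: Wfs1 and Fibcd1 of the CA1 list, Prox1 of the dentate gyrus list and Pcp4 of the CA2 and CA3 list. They are not taken to stand for their fields, and Pcp4 is also made in the thalamus and other regions. Wfs1 (chr5:36988933-36989232, minus strand) and Prox1 (chr1:190170778-190171077, minus strand) hold the letters CAGATG, read on both strands and shown in capitals, with the first base at -170 and -179 from the start site. Fibcd1 (chr2:31845956-31846255, minus strand) and Pcp4 (chr16:96467356-96467655, plus strand) hold none of the 4 motifs searched. Capitals in the Wfs1 window read CATCTG because the match is on the other strand.
Wfs1: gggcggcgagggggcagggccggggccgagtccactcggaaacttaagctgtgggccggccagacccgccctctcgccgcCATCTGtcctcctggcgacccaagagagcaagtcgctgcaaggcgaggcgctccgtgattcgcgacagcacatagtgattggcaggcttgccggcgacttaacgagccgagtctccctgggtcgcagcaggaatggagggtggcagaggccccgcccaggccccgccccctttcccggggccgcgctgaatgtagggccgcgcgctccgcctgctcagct
Fibcd1: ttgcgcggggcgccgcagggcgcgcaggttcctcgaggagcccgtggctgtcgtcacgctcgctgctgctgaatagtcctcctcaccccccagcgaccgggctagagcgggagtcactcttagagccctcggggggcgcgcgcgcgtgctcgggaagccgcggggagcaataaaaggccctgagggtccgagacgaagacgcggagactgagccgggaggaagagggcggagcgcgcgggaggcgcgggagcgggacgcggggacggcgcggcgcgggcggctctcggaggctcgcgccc
Prox1: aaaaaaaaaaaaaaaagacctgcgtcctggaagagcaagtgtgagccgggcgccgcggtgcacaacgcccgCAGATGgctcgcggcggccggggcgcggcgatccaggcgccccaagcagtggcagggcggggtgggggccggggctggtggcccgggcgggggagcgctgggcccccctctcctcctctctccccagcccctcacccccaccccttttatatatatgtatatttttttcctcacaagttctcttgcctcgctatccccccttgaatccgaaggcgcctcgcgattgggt
Pcp4: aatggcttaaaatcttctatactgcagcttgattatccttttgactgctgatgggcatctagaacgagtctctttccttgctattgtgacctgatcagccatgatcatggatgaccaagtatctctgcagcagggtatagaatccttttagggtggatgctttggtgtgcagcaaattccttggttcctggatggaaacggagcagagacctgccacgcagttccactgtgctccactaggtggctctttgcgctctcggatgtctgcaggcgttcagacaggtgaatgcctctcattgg

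CAGATG, a letter string of the kind bound by NEUROD factors, was present in 5 of 33 member windows and in 17.15% of all 32851 windows of the same length. Its other carriers were Gpr161, Iyd and Plagl1. CAGCTG was present in 1 member window (Glis3) and in 16.3% of all windows. ATGCAAA, a part of the octamer motif of POU factors, was found in a second window of Prox1 and in 4.63% of all windows. GTTGCCA, from the motif of RFX factors, was found in 1 window of Pitpnm2 and in 4.38% of all windows. CAGATG and CAGCTG are both of the form CANNTG and cannot match at the same position, and a match is only a match of letters. The median GC content was 66.3% over the member windows and 52.7% over all windows.

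Markers of several other tissues differed between the libraries, some by number and some by treatment. Their values stand here beside the comparisons that follow. All 15 of 15 thalamic markers passed the test as lower in the libraries numbered 2, against 6.95% of all tested genes. Their summed level was 81.9 FPKM in ascorbate 2 and 76.8 FPKM in PBS 2, against 524 FPKM in ascorbate 1 and 494 FPKM in PBS 1. Gbx2, a thalamic transcription factor, was listed at 0 in PBS 2. The most abundant thalamic marker, Prkcd, a protein kinase, stood at 11.8 and 8.30 FPKM in ascorbate 2 and PBS 2, against 92.8 and 83.1 FPKM in ascorbate 1 and PBS 1. Of 7 habenular markers, 6 passed as lower in the libraries numbered 2, against the same 6.95%, among them Pou4f1, listed at 0 in both. The habenular list summed to 10.4 and 9.42 FPKM against 71.3 and 41.0 FPKM. Choroid plexus markers, 14 of 14, were lower in both ascorbate libraries, where 14.4% of all tested genes were. They summed to 225 FPKM in ascorbate 1 and 47.6 FPKM in ascorbate 2, against 9687 FPKM in PBS 1 and 8939 FPKM in PBS 2. Otx2 and Tmem72 of that list were at 0 in ascorbate 2. The part of these tissues in the results on the field markers was not tested.

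Between the libraries numbered 2 and those numbered 1, limma-trend on log2(FPKM + 1) passed 15 of the 33 field markers at a Benjamini-Hochberg adjusted p under 0.05, where 12% of the 13372 tested genes passed. Higher in number 2 were 14 members, against 5.03% of all tested genes, and lower was 1 member, against 6.95% of them. The 14 higher members were 4 of CA1, 1 of CA2 and CA3 and 9 of the dentate gyrus, and the lower member was Pcp4. Without regard to the test, both libraries numbered 2 stood above both numbered 1 for 26 members, against 22.6% of tested genes, and below them for 4 members, against 38.5%. The median log2 difference, number 2 minus number 1, was 1.29 over CA1, -0.073 over CA2 and CA3 and 0.66 over the dentate gyrus, with -0.082 over all tested genes. The call count depends on the libraries kept: with ascorbate 1 left out 0 of all genes and 0 members passed, and with PBS 1 left out 69 genes passed, of which the only member was Pcp4. The split of all calls also depends on scaling, with 42.0% of them higher in the deposited FPKM and 53.1% after rescaling to TPM, while the 15 called members kept their direction with TPM, median-of-ratios and quantile scaling. With treatment as a second factor 22 members passed as higher, against 9.84% of tested genes, and 4 as lower, against 17.9%.

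**Figure D1:**
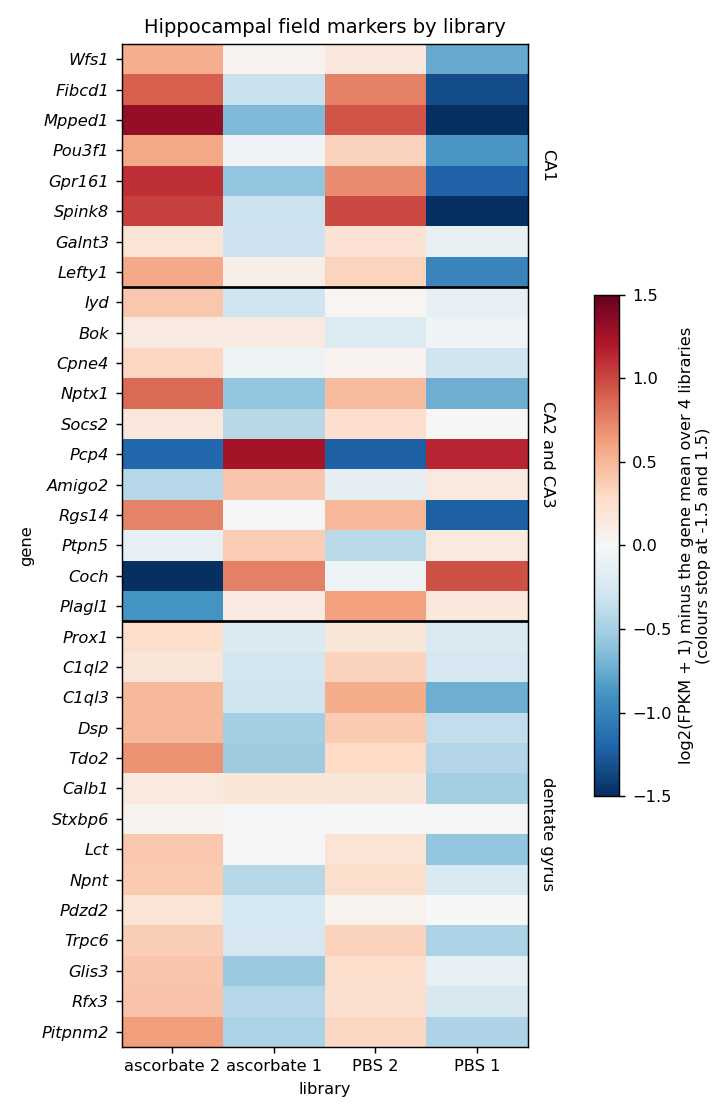
Each row is a marker, each column a library (ascorbate 2, ascorbate 1, PBS 2, PBS 1), and the colour is the log2(FPKM + 1) of that library minus the gene's mean over the 4 libraries, with colours stopping at -1.5 and 1.5. CA1 markers are high in both libraries numbered 2 and lowest in PBS 1 for 7 of 8, and the CA2 and CA3 block is mixed.

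CA1 members were high in the libraries numbered 2. All 8 of 8 stood above those numbered 1 without overlap, where 22.6% of all tested genes did. Mpped1 (chr15:83779472-83858487 in RefSeq GRCm38.p6, as are the positions below), a gene of the metallophosphoesterase family, measured 59.5 FPKM in ascorbate 2 and 45.4 FPKM in PBS 2, against 14.3 FPKM in ascorbate 1 and 7.0 FPKM in PBS 1. Both libraries numbered 2 were therefore well above both others, by 4.16-fold within ascorbate and 6.49-fold within PBS. The log2 difference was 2.26 ± 0.31 (SE, n = 2 each, limma adjusted p = 0.0144). Gpr161 (chr1:165281184-165326747), a receptor of primary cilia that holds hedgehog signalling in check, measured 17.7 FPKM in ascorbate 2 and 13.4 FPKM in PBS 2, against 4.84 FPKM in ascorbate 1 and 2.78 FPKM in PBS 1. The order was the same as for Mpped1, with no overlap, and the log2 difference was 1.80 ± 0.24 (SE, limma adjusted p = 0.0131). Gpr161 overlaps Tiprl in the annotation, and the strand setting of the counting is not given in the sources used here, so reads of the 2 genes could be mixed.

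Spink8, a Kazal-type inhibitor of serine proteases, measured 30.9 FPKM in ascorbate 2 and 30.0 FPKM in PBS 2, against 11.55 FPKM in ascorbate 1 and 3.85 FPKM in PBS 1. The libraries numbered 2 were nearly equal and those numbered 1 were apart, so that the fold was 2.68 within ascorbate and 7.79 within PBS (limma adjusted p = 0.0366). Spink8 overlaps the annotated gene Gm51691. Fibcd1, a membrane receptor that binds acetylated groups such as those of chitin, measured 19.1 FPKM in ascorbate 2 and 17.2 FPKM in PBS 2, against 7.59 FPKM in ascorbate 1 and 3.30 FPKM in PBS 1. PBS 1 was again the lowest library, and the log2 difference was 1.66 ± 0.32 (SE, limma adjusted p = 0.0296).

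The other 4 CA1 members did not overlap between the numbers but missed the threshold. Wfs1, which encodes wolframin of the endoplasmic reticulum membrane, measured 26.7 FPKM in ascorbate 2 and 20.2 FPKM in PBS 2, against 18.65 FPKM in ascorbate 1 and 10.3 FPKM in PBS 1. PBS 2 and ascorbate 1 were close, and the log2 difference of 0.70 ± 0.28 (SE) had an adjusted p of 0.162 by limma. Pou3f1, a POU-domain transcription factor, measured 11.4 and 9.44 FPKM in ascorbate 2 and PBS 2, against 6.96 and 3.50 FPKM in ascorbate 1 and PBS 1. Lefty1, a secreted inhibitor of nodal signalling, measured 4.72 and 3.86 FPKM in ascorbate 2 and PBS 2, against 3.10 and 0.94 FPKM in ascorbate 1 and PBS 1. Lefty1 shares 97.56% identity over 451 bases with Lefty2, so its reads may be divided between the 2 genes. Galnt3, a transferase that starts mucin-type O-glycosylation, was the only CA1 member whose lowest library was not PBS 1, with 1.59 and 1.61 FPKM in ascorbate 2 and PBS 2, against 0.81 and 1.09 FPKM in ascorbate 1 and PBS 1. Adjusted p-values by limma were 0.0911 for Pou3f1, 0.159 for Lefty1 and 0.212 for Galnt3.

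**Figure D2:**
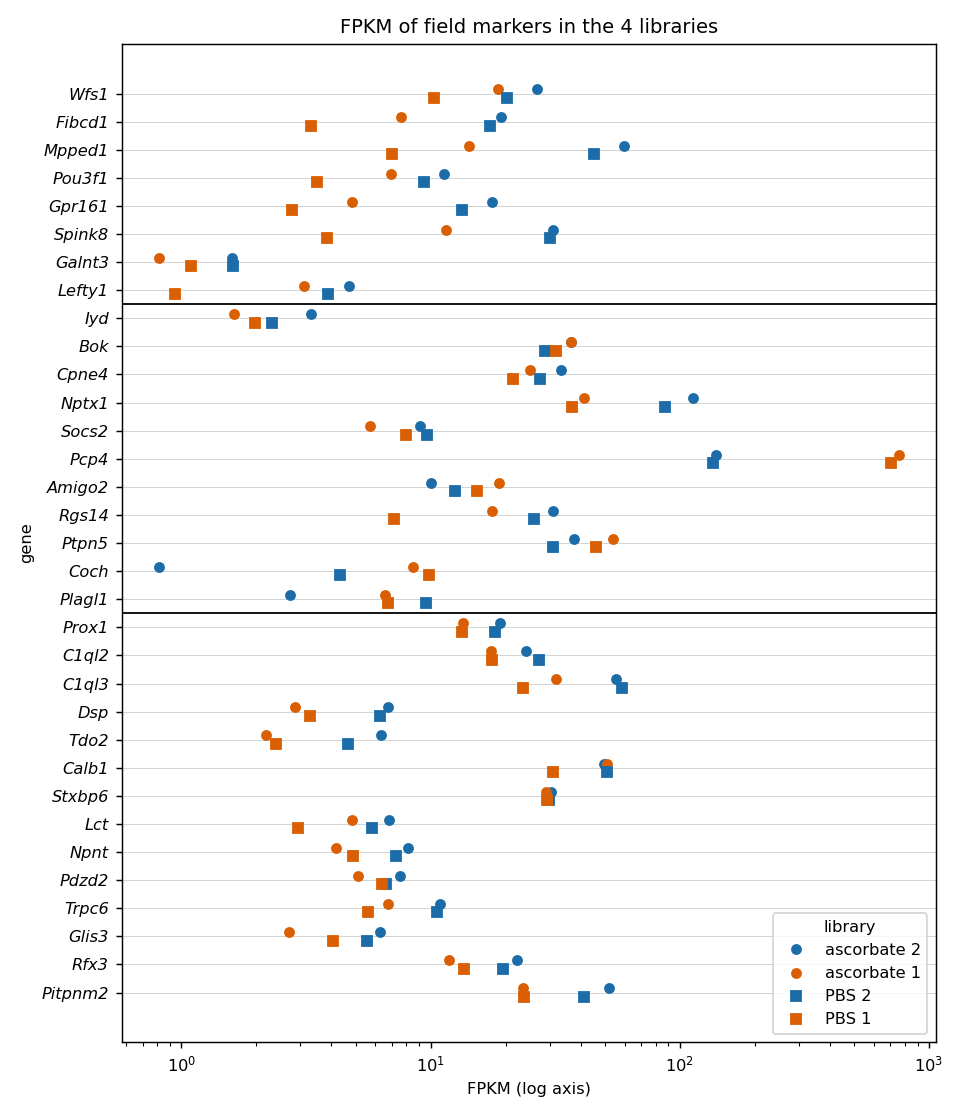
FPKM of every member on a log axis, one symbol per library, circles for ascorbate, squares for PBS, blue for number 2 and orange for number 1. Black lines divide CA1, CA2 and CA3, and dentate gyrus members from top to bottom. Pcp4 spans 136 to 755 FPKM and is the member with the most abundant library, while Galnt3 falls below 1 FPKM in ascorbate 1, Coch in ascorbate 2 and Lefty1 in PBS 1.

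CA2 and CA3 members did not move as a block. Of 11 members, 5 were higher in both libraries numbered 2, 4 were lower in both, and Bok and Plagl1 overlapped. Of all tested genes, 22.6% were higher in both and 38.5% lower, so the lower count is near the share of all genes. Pcp4 (chr16:96467606-96525793), a small calmodulin-binding protein used as a marker of CA2 and also made in the thalamus and other regions, measured 140 FPKM in ascorbate 2 and 136 FPKM in PBS 2, against 755 FPKM in ascorbate 1 and 704 FPKM in PBS 1. The 2 libraries of each number were close together, and number 1 exceeded number 2 by 5.38-fold in ascorbate and 5.19-fold in PBS. The log2 difference of -2.39 ± 0.14 (SE, n = 2 each) had a limma adjusted p of 0.00308. That p was 0.0572 with ascorbate 1 left out, and between 5.83e-08 and 0.0785 over all alternatives. Pcp4 shares a stretch of 245 identical bases with Igsf5, and the thalamic list above was lower in the same libraries. Nptx1 (chr11:119538719-119547820), a neuronal pentraxin that clusters AMPA receptors at synapses, went the other way, with 113 FPKM in ascorbate 2 and 86.9 FPKM in PBS 2, against 41.1 FPKM in ascorbate 1 and 36.95 FPKM in PBS 1. Its log2 difference was 1.32 ± 0.16 (SE, limma adjusted p = 0.0104).

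Rgs14 (chr13:55369732-55384687), a G-protein regulator that restrains plasticity in CA2, measured 31.0 FPKM in ascorbate 2 and 26.0 FPKM in PBS 2, against 17.7 FPKM in ascorbate 1 and 7.16 FPKM in PBS 1. PBS 1 was the lowest by a wide margin, as in CA1, and the adjusted p by limma was 0.0909. Amigo2, an adhesion molecule also used for CA2, measured 10.0 and 12.5 FPKM in ascorbate 2 and PBS 2, against 18.9 and 15.4 FPKM in ascorbate 1 and PBS 1 (limma adjusted p = 0.0757). Ptpn5, a striatal-enriched tyrosine phosphatase, measured 37.7 and 31.0 FPKM in ascorbate 2 and PBS 2, against 54.0 and 45.9 FPKM in ascorbate 1 and PBS 1 (limma adjusted p = 0.0744). Rgs14, then, lay above in number 2, and Pcp4, Amigo2 and Ptpn5 lay below. They come from a joint list of CA2 and CA3 and do not sum up CA2. Amigo2 overlaps Pced1b in the annotation.

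Coch, a secreted protein of the extracellular matrix best known from the inner ear, had its lowest value, 0.81 FPKM, in ascorbate 2 and 4.33 FPKM in PBS 2, against 8.47 FPKM in ascorbate 1 and 9.85 FPKM in PBS 1. Ascorbate 2 stood apart from the other three, and the log2 difference was -1.71 ± 0.48 (SE, limma adjusted p = 0.0785). The remaining members were smaller in size of difference. Cpne4, a calcium-dependent membrane-binding copine, measured 33.2 and 27.6 FPKM in ascorbate 2 and PBS 2, against 25.0 and 21.4 FPKM in ascorbate 1 and PBS 1. Socs2, a suppressor of cytokine signalling, measured 9.10 and 9.65 FPKM against 5.73 and 7.96 FPKM in the same order. Iyd, an iodotyrosine deiodinase, measured 3.30 and 2.30 FPKM in ascorbate 2 and PBS 2, against 1.63 and 1.97 FPKM in ascorbate 1 and PBS 1. Bok, a BCL2-family protein, was nearly level at 36.6 and 28.7 FPKM, against 36.7 and 31.9 FPKM. The imprinted zinc-finger gene Plagl1 measured 2.72 and 9.58 FPKM in ascorbate 2 and PBS 2, against 6.57 and 6.72 FPKM in ascorbate 1 and PBS 1, so both libraries numbered 1 lay between those numbered 2.

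Dentate gyrus members were higher in both libraries numbered 2 for 13 of 14, against 22.6% of all tested genes. The test passed 9 as higher, against 5.03% of all tested genes. Prox1 (chr1:190118035-190170827), the homeodomain factor that specifies granule cells, measured 19.1 FPKM in ascorbate 2 and 18.1 FPKM in PBS 2, against 13.4 FPKM in ascorbate 1 and 13.4 FPKM in PBS 1. The 2 libraries of each number were nearly equal, and the log2 difference was 0.44 ± 0.10 (SE, n = 2 each, limma adjusted p = 0.0480). C1ql2 and C1ql3 encode C1q-like proteins that mossy fibres release at CA3 synapses. C1ql2 measured 24.1 and 27.2 FPKM in ascorbate 2 and PBS 2, against 17.4 and 17.6 FPKM in ascorbate 1 and PBS 1 (limma adjusted p = 0.0381). C1ql3 measured 55.6 and 58.5 FPKM in ascorbate 2 and PBS 2, against 31.9 and 23.4 FPKM in ascorbate 1 and PBS 1. For C1ql3 the log2 difference was 1.03 ± 0.16 (SE, limma adjusted p = 0.0190), and the gene overlaps Pter.

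Pitpnm2, a phosphatidylinositol transfer protein, measured 51.9 and 41.2 FPKM in ascorbate 2 and PBS 2, against 23.6 and 23.7 FPKM in ascorbate 1 and PBS 1. The libraries numbered 1 were almost the same, and the log2 difference was 0.94 ± 0.14 (SE, limma adjusted p = 0.0160). Dsp, which encodes the desmosomal protein desmoplakin, measured 6.75 and 6.27 FPKM in ascorbate 2 and PBS 2, against 2.87 and 3.27 FPKM in ascorbate 1 and PBS 1 (limma adjusted p = 0.0167). Tdo2, the heme enzyme that opens the tryptophan ring, measured 6.35 and 4.65 FPKM in ascorbate 2 and PBS 2, against 2.18 and 2.39 FPKM in ascorbate 1 and PBS 1. Within a treatment, the ratios of Pitpnm2, Dsp and Tdo2, number 2 over number 1, lay between 1.74 and 2.91. Trpc6, a cation channel, measured 10.9 and 10.6 FPKM in ascorbate 2 and PBS 2, against 6.72 and 5.62 FPKM in ascorbate 1 and PBS 1. Stretches of Trpc6 transcripts are near-identical to stretches of 8 other genes. Rfx3, a transcription factor of ciliated cells, measured 22.2 and 19.5 FPKM in ascorbate 2 and PBS 2, against 11.8 and 13.6 FPKM in ascorbate 1 and PBS 1. Npnt, the matrix protein nephronectin, measured 8.09 and 7.28 FPKM in ascorbate 2 and PBS 2, against 4.16 and 4.89 FPKM in ascorbate 1 and PBS 1. Tdo2, Trpc6, Rfx3 and Npnt had limma adjusted p-values of 0.0258, 0.0244, 0.0282 and 0.0354.

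The 5 dentate members that did not pass were Glis3, Lct, Calb1, Pdzd2 and Stxbp6. Glis3, a zinc-finger transcription factor, measured 6.27 and 5.57 FPKM in ascorbate 2 and PBS 2, against 2.71 and 4.04 FPKM in ascorbate 1 and PBS 1 (limma adjusted p = 0.0731). Lct, the gene of lactase and a marker of granule cells in mouse, measured 6.81 and 5.84 FPKM in ascorbate 2 and PBS 2, against 4.84 and 2.95 FPKM in ascorbate 1 and PBS 1. Calb1, the calcium buffer calbindin, overlapped, with 49.6 and 50.8 FPKM in ascorbate 2 and PBS 2, against 50.9 and 31.1 FPKM in ascorbate 1 and PBS 1. Only PBS 1 was low for Calb1. Pdzd2, a PDZ-domain protein, ranged from 5.13 to 7.51 FPKM, and Stxbp6, a syntaxin-binding protein, from 29.1 to 30.5 FPKM over the 4 libraries. Stxbp6 was the most even of the 33 members across libraries, with a log2 difference of 0.046 ± 0.099 (SE).

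**Figure D3:**
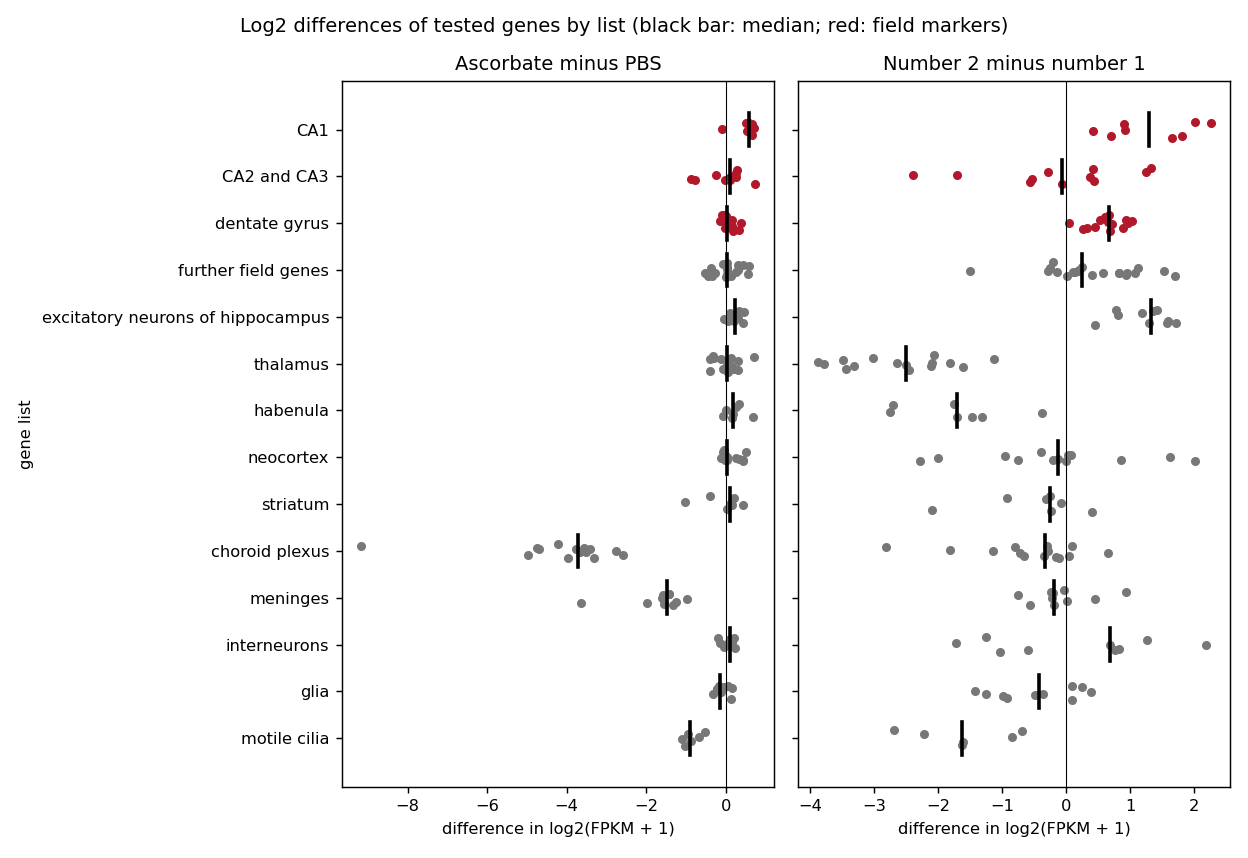
Log2 differences on the log2(FPKM + 1) scale for ascorbate minus PBS (left) and number 2 minus number 1 (right), one point per tested gene, with field markers in red, the lists of other genes and tissues in grey and a black bar at each median. CA1 members lie between 0.42 and 2.26 by number, dentate members between 0.046 and 1.03, and CA2 and CA3 members on both sides of 0.

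Between ascorbate and PBS, limma-trend passed 0 of the 33 members and 0 of all tested genes (0%). An unadjusted p under 0.05 held for 0 members and for 377 genes of all (2.82%), 13 higher and 364 lower. The smallest p that an exact permutation test of 2 against 2 libraries can give is 0.333. Only Bok had both ascorbate libraries higher, with 36.7 FPKM in ascorbate 1 and 36.6 FPKM in ascorbate 2, against 31.9 FPKM in PBS 1 and 28.7 FPKM in PBS 2, where 8.65% of all tested genes did. Only Plagl1 had both lower, with 6.57 and 2.72 FPKM in ascorbate 1 and ascorbate 2, against 6.72 and 9.58 FPKM in PBS 1 and PBS 2, where 14.4% of all tested genes did. Log2 differences were 0.27 ± 0.14 (SE) for Bok and -0.77 ± 0.41 (SE) for Plagl1. The sign was positive for 22 of 33 members, and for 45.8% of all tested genes.

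By field, the median log2 difference, ascorbate minus PBS, was 0.58 over CA1, 0.10 over CA2 and CA3, 0.024 over the dentate gyrus and -0.018 over all tested genes. Within a number the CA1 median was 0.24 in the libraries numbered 2 and 0.88 in those numbered 1, so ascorbate libraries were higher in both. In the fit without the number, the CA1 median was -0.37 with PBS 1 left out, where both ascorbate libraries stand against PBS 2 alone and the difference between the numbers enters, and it lay between -0.37 and 1.39 over the 4 libraries left out in turn. PBS 1 was the lowest library for 7 of 8 CA1 members, where it was lowest for 20.9% of all tested genes. Ascorbate 1 was the lowest library for 9 of 14 dentate members, against 21.1% of all tested genes. Ascorbate 2 was the highest for 22 of 33 members, against 24.8%. These counts also carry the difference between the numbers. All 8 CA1 and 13 of 14 dentate members were higher in both libraries numbered 2, so their lowest library was one numbered 1. The shares of all tested genes do not carry that condition. Within number 1 the dentate median, ascorbate minus PBS, was -0.015, and within number 2 it was 0.11. Spink8 of the CA1 list shows the range there, with 11.55 and 30.9 FPKM in ascorbate 1 and ascorbate 2, against 3.85 and 30.0 FPKM in PBS 1 and PBS 2. In number 2 the ratio for Spink8, ascorbate over PBS, was 1.03, and in number 1 it was 3.0. Wfs1 had ratios of 1.32 in number 2 and 1.81 in number 1, and Mpped1 had 1.31 and 2.04. With the number as a second factor in limma, 3 members passed as higher in ascorbate, Wfs1 (adjusted p = 0.0155), Mpped1 (adjusted p = 0.00996) and Rgs14 (adjusted p = 0.0239), where 0.239% of all tested genes did. Coch passed as lower (adjusted p = 0.0437), where 3.39% of all tested genes did. That fit has only 1 residual degree of freedom, so its p-values lean on the variance shared between genes. With all 4 libraries kept, no other setting passed any member by treatment.

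The fields were also set against each other within each library, on log2 levels centred on each gene's mean over the 4 libraries, so that a difference between fields sums to 0 over the libraries. The mean centred log2 level of CA1 minus that of the dentate gyrus was 0.41 in ascorbate 2 and 0.30 in PBS 2, against 0.027 in ascorbate 1 and -0.74 in PBS 1. CA1 minus CA2 and CA3 was 0.93 in ascorbate 2 and 0.57 in PBS 2, against -0.42 in ascorbate 1 and -1.08 in PBS 1. CA2 and CA3 minus dentate gyrus was -0.51 in ascorbate 2 and -0.27 in PBS 2, against 0.44 in ascorbate 1 and 0.34 in PBS 1. Each field level here is an unweighted mean over its list. CA2 and CA3 members ranged by number from -2.39 (Pcp4) to 1.32 (Nptx1), so their mean does not describe the list as a whole. These contrasts were not computed without Pcp4. By summed FPKM the order of the lists was the same in all 4 libraries, with CA1 lowest, the dentate gyrus next and CA2 and CA3 highest. That order depends on Pcp4, and sums over lists of 8, 14 and 11 different genes do not rank the fields. Pcp4 was the most abundant gene of the CA2 and CA3 list in all 4 libraries, and the summed level of that list was 418 FPKM in ascorbate 2 and 374 FPKM in PBS 2, against 971 FPKM in ascorbate 1 and 890 FPKM in PBS 1. Without Pcp4 the direction turned, and the other 10 members summed to 277 FPKM in ascorbate 2 and 239 FPKM in PBS 2, against 216 FPKM in ascorbate 1 and 185 FPKM in PBS 1. The dentate sum was 306 FPKM in ascorbate 2 and 292 FPKM in PBS 2, against 207 FPKM in ascorbate 1 and 182 FPKM in PBS 1. Without Pcp4, the CA2 and CA3 sum lay below the dentate sum in number 2 and slightly above it in number 1. The CA1 sum was 172 FPKM in ascorbate 2 and 141 FPKM in PBS 2, against 67.8 FPKM in ascorbate 1 and 32.7 FPKM in PBS 1.

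Transcripts listed for excitatory neurons of the hippocampus were also higher in number 2. Whether every field makes each of them was not tested. Of 10 such genes, 9 passed as higher, against 5.03% of all tested genes, and the median log2 difference was 1.33. The 10 summed to 2139 FPKM in ascorbate 2 and 1679 FPKM in PBS 2, against 865 FPKM in ascorbate 1 and 673 FPKM in PBS 1. Camk2a, the synaptic kinase subunit, measured 879 and 576 FPKM in ascorbate 2 and PBS 2, against 306 and 250 FPKM in ascorbate 1 and PBS 1. Nrgn, a postsynaptic calmodulin-binding protein, measured 461 and 440 FPKM in ascorbate 2 and PBS 2, against 238 and 163 FPKM in ascorbate 1 and PBS 1. Members were also divided by Slc17a7, the vesicular glutamate transporter of these neurons, a choice made after values were seen. Slc17a7 was itself 3.02-fold higher in number 2, so a gene that differed by less is lower in this ratio by construction. Relative to Slc17a7, 26 of 33 members were lower in both libraries numbered 2, as were 96.9% of all tested genes, and 5 overlapped. Higher in both were 2 members and 0.172% of all tested genes. These 2 were CA1 members, Mpped1 at 0.157 and 0.153 in ascorbate 2 and PBS 2, against 0.109 and 0.0756 in ascorbate 1 and PBS 1, and Gpr161 at 0.0466 and 0.0453 against 0.0369 and 0.030.

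**Figure D4:**
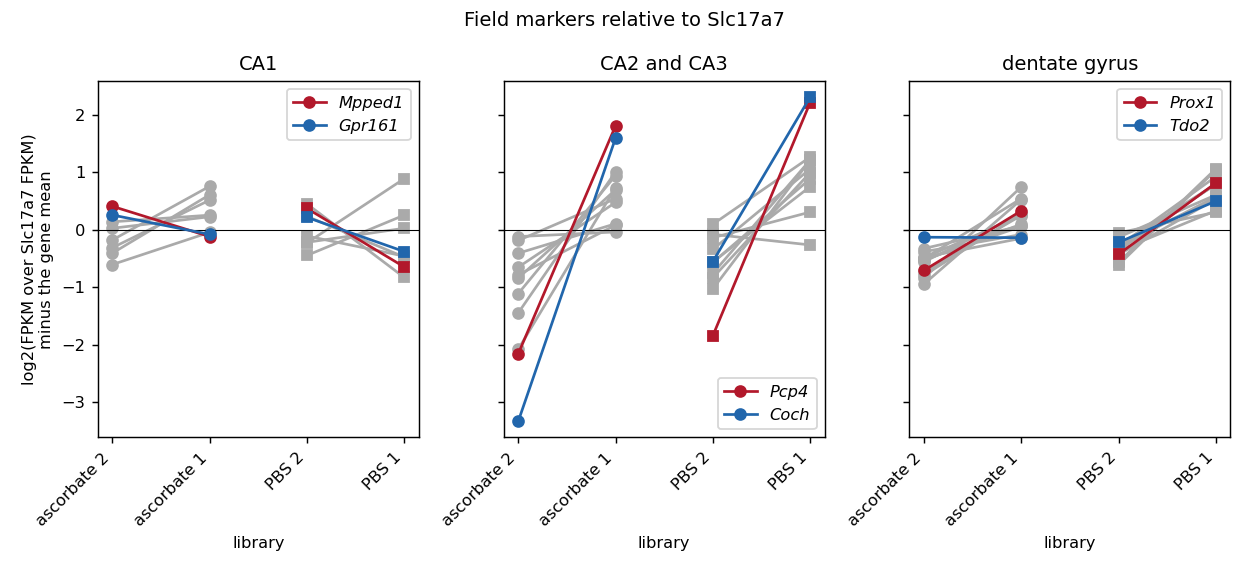
Log2 of each member's FPKM over that of Slc17a7 in the same library, minus the gene's mean over the 4 libraries, by field, with lines joining the 2 libraries of a treatment and a pair of genes coloured in each field. Slc17a7 was 3.02-fold higher in number 2, which lowers most ratios there: 26 of 33 members and 96.9% of all tested genes are lower in both libraries numbered 2, and Mpped1 and Gpr161 are higher.

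A list of further field genes, 23 listed and 21 tested, had 7 genes higher and 1 lower in number 2 by limma. Of all tested genes 5.03% passed as higher and 6.95% as lower. The median log2 difference was 0.25, with -0.082 over all tested genes. Dkk3, a secreted protein of the Dickkopf family, measured 127 and 97.2 FPKM in ascorbate 2 and PBS 2, against 43.1 and 26.0 FPKM in ascorbate 1 and PBS 1. Cacng5, an auxiliary subunit of AMPA receptors, was lower, with 2.51 and 1.59 FPKM in ascorbate 2 and PBS 2, against 8.90 and 6.40 FPKM in ascorbate 1 and PBS 1. Homer3, a postsynaptic scaffold, and Ntf3, a neurotrophin, passed as higher, with log2 differences of 1.07 and 0.95, while Fn1, fibronectin, had 1.13 and an adjusted p of 0.0626.

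Markers of other neighbouring and intermixed tissues differed by number or by treatment, in mixed directions. Beside the counts by number that follow, 5.03% of all tested genes passed as higher and 6.95% as lower. Neocortical markers had a median log2 difference of -0.13, with 3 higher and 3 lower of 13, and striatal markers of -0.26, with 2 lower of 7 tested. Glial markers had a median of -0.43, with 4 lower of 10, among them the myelin genes, and summed to 1819 and 2125 FPKM in ascorbate 2 and PBS 2, against 3613 and 3695 FPKM in ascorbate 1 and PBS 1. Interneuron markers had a median of 0.68, with 4 higher and 3 lower of 9. Meningeal markers, 10 of 10, were lower in both ascorbate libraries, where 14.4% of all tested genes were. Motile cilia markers summed to 4.20 FPKM in ascorbate 2 and 29.5 FPKM in PBS 2, against 60.3 FPKM in ascorbate 1 and 53.4 FPKM in PBS 1. The part of these lists in the differences of the field markers was not tested.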

How the data were processed

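Hippocampal RNA from 2 ascorbate and 2 PBS libraries was analysed. Per the labels' protocols, RNA was extracted with Trizol and mRNA was captured on oligo(dT) beads. The deposited files hold FPKM for each gene and library, per the file headers. HISAT2, Bowtie2, RSEM and DESeq2 and the GRCm38 build are named in the submitters' processing notes, with no version or order; annotation release and strand setting are not given in the sources used here. Read depth is unknown, so no counting interval was computed.

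Groups follow the labels, and the library numbers are those of the titles. Of 22173 genes, 2785 had empty cells, and 13372 with a mean of at least 1 FPKM were tested on log2(FPKM + 1) with limma-trend, from limma 3.58.1 in R 4.3.3, once by treatment and once by number, with 2 residual and, by treatment, 2.33 or, by number, 3.73 prior degrees of freedom. The fit with both factors had 1 residual degree of freedom. Differences run ascorbate minus PBS and number 2 minus number 1, on the log2(FPKM + 1) scale, which understates the change of low genes. P-values were Benjamini-Hochberg adjusted over all tested genes, with a threshold of 0.05. All 33 members were tested. Those named from other lists are the 6 further field genes with the widest log2 difference in either comparison, up to 2 of the most abundant genes of each list of other tissue, and genes listed at 0. A gene that this rule takes is not reported here. Members, lists and tests were chosen with earlier results of these data known.

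Member transcripts were compared with GENCODE M21 transcripts by BLAST 2.17.0, at 95% identity over at least 200 bases, and promoter windows came from RefSeq (GRCm38.p6). Positions were read with Python 3.11.15. Alternatives were other pseudocounts (0.1 and 0.5), quantile normalization, TPM or median-of-ratios scaling, a mean of 5 FPKM or no filter, robust or untrended limma variances, the number as a block, and each library left out.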

Additional observations from a re-analysis of the deposited data

How the results depend on the processing

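All 33 members kept their direction by number under pseudocounts of 0.1 and 0.5, no filter, quantile normalization and limma without trend or with robust variances, as did the 27 left at a minimum of 5 FPKM; Bok turned to 0.035 with TPM and 0.020 with median-of-ratios scaling. By number 1602 genes passed in the reported fit, 0 with no filter, 1942 with robust variances, and between 0 (without ascorbate 1) and 1731 (without PBS 2) with a library left out. By treatment 1 gene passed with quantile normalization. Medians by number were 1.73 for CA1 at a minimum of 5 FPKM (0.84 to 1.78 with a library left out); for CA2 and CA3 -0.18 at 5 FPKM, 0.035 with TPM and 0.020 with median-of-ratios scaling (-0.17 to 0.24); and for the dentate gyrus 0.74 at a pseudocount of 0.1, 0.82 with TPM, 0.75 with median-of-ratios and 0.75 with quantile scaling. By treatment the CA2 and CA3 median was 0.12 at a pseudocount of 0.1, 0.16 at 5 FPKM, 0.17 with TPM, 0.14 with median-of-ratios and 0.25 with quantile scaling (-0.024 to 0.27 with a library left out), the CA1 median -0.37 to 1.39 and the dentate median -0.30 to 0.40. TPM scaling moved the median of all genes by number by 0.10, and 53.1%, 52.1% and 52.9% of calls were then higher with TPM, median-of-ratios and quantile scaling. The cause was not tested.

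By treatment, where no member passed the test, the sign of small differences turned with scaling. With TPM scaling the log2 difference, ascorbate minus PBS, was 0.041 for Amigo2, 0.020 for Dsp, 0.019 for Npnt and 0.051 for Rfx3. Median-of-ratios scaling gave 0.038 for Amigo2, 0.019 for Dsp, 0.018 for Npnt and 0.047 for Rfx3. Quantile normalization gave 0.069 for Galnt3, 0.015 for Amigo2, 0.055 for Dsp, 0.039 for Npnt, 0.0054 for Pdzd2 and 0.014 for Rfx3.

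Leaving out 1 library at a time, with the lone library of a group assumed to vary like the others, lets the difference between the numbers enter the treatment difference, and it changed the sign by treatment for these members, given as the lowest and highest log2 difference. In CA1 it ran from -0.47 to 1.61 for Fibcd1, -0.61 to 1.93 for Mpped1, -0.073 to 1.14 for Pou3f1, -0.46 to 1.47 for Gpr161, -0.63 to 2.04 for Spink8, -0.37 to 0.15 for Galnt3 and -0.0051 to 1.32 for Lefty1. In CA2 and CA3 it ran from -0.25 to 0.46 for Iyd, -0.46 to 0.98 for Nptx1, -0.54 to 0.048 for Socs2, -1.14 to 1.28 for Pcp4, -0.44 to 0.42 for Amigo2, -0.14 to 1.58 for Rgs14, -0.024 to 0.53 for Ptpn5 and -2.07 to 0.32 for Coch. In the dentate gyrus it ran from -0.20 to 0.28 for Prox1, -0.39 to 0.21 for C1ql2, -0.46 to 0.82 for C1ql3, -0.53 to 0.48 for Dsp, -0.46 to 0.75 for Tdo2, -0.017 to 0.67 for Calb1, -0.026 to 0.038 for Stxbp6, -0.018 to 0.77 for Lct, -0.44 to 0.38 for Npnt, -0.29 to 0.18 for Pdzd2, -0.28 to 0.53 for Trpc6, -0.63 to 0.34 for Glis3, -0.43 to 0.43 for Rfx3 and -0.40 to 0.71 for Pitpnm2. By number it ran from -0.24 to 0.098 for Bok, -1.04 to 0.47 for Plagl1 and -0.020 to 0.67 for Calb1.

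The library numbers pair 2 libraries each, and with 2 pairs they share only a number. Deviations of same-numbered libraries from their group means correlated at 0.77. With the number as a replicate block 485 genes passed by treatment, 32 higher and 453 lower, and with treatment as the other factor 3708 passed by number, with 22 members higher and 4 lower. Depth is unknown, so the precision of members near 1 FPKM, such as Galnt3, cannot be given.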
